A study of Musca domestica with 8 samples.

Results

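Among 8 samples of the spinosad resistant housefly strain 791spin, the samples titled No.1 and No.2 stood apart from No.3 to No.8 in 1755 contigs whose annotation named an insect species. The contigs were chosen by their levels in these same samples: a contig was taken when No.1 and No.2 both lay below, or both lay above, all of the other 6 samples. Of 35834 contigs, 20372 had a mean count of at least 10, and 13026 of those carried an insect annotation. In 1026 contigs (7.88% of the 13026) No.1 and No.2 lay below the other 6 samples, and in 729 contigs (5.6%) they lay above. The sample labels do not name this split. It was noticed in the counts, so its values are given as a description without a test, and "lower" and "higher" mean the position of No.1 and No.2. Where 2 values stand before "against", they are those of No.1 and No.2 in this order, followed by the lowest and highest of the other 6 samples. Leaving out a sample makes the rule easier to meet and cannot lower these counts, so their rise is no check. They were 3126 and 4874 without No.1 and 2607 and 2171 without No.2, and without No.3 the higher contigs numbered 1212.

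All 8 samples carry the same label. They are adult houseflies (Musca domestica) of 791spin, which descends from the multi-resistant strain 791a and was kept under spinosad, with a resistance ratio of 21 in females and 6 in males. By the labels, RNA came from whole bodies of pools of about 60 flies of both sexes, aged 5 to 7 days and fed on sugar. The levels of yolk protein given below differed widely between the pools, and their share of females was not tested. A level is an average over tissues, and fewer cells of a type cannot be told apart from less RNA per cell. The labels describe a single normalized cDNA library, in which abundant transcripts are made rarer, read by pyrosequencing. The counts go against this description, since there are 8 columns of at least 10266664 counts each, many times the pyrosequencing reads that the study describes. Which reads were counted, and whether their library was normalized, is therefore not known, and levels of different contigs cannot be read as abundances in the fly. A susceptible strain is spoken of in the description of the series but in no sample label, and nothing in the labels says whether the pools came from separate cultures.

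Spinosad is an insecticide of bacterial origin that overstimulates nicotinic acetylcholine receptors on neurons. Insects meet such compounds with detoxification enzymes, among which cytochrome P450 monooxygenases oxidize the compound, glutathione S-transferases join it to glutathione and esterases split it. In a whole fly these transcripts stand beside those of the gut (trypsins, amylases), the flight muscle, the antennae and the ovaries.

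The total counts were 16115208 in No.1 and 14483098 in No.2, against 10266664 to 11616439 in the other 6 samples, so depth moved with the split. Levels are given as CPM, that is counts per 1000000 counts of the sample, and the floor used for ratios was 3 counts. Thinning all samples to the smallest total left 1004 lower and 668 higher contigs, of which 939 and 586 were among those above. The share of the 10 contigs with the highest counts was 26.7% in No.1, 17.1% in No.2 and 15.2% to 20.7% in the others, and the share of counts on insect-annotated contigs was 52.5% and 65.9% against 59.6% to 66.9%. Scaling moved the balance of the directions: lower contigs were 58.5% of the members with CPM, 51.7% with TMM factors (trimmed mean of M values), 50.3% with DESeq2 size factors and 46.5% when the 10 most counted contigs were left out of the totals. The part of depth and composition in the split was not tested.

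Odd and even sample numbers formed another pattern, which was taken as a covariate. Summed over 27 contigs, yolk protein, which females make for their eggs, was at 19.9, 7.19, 126 and 29.4 CPM in No.1, No.3, No.5 and No.7, and at 205, 2810, 1827 and 3934 CPM in No.2, No.4, No.6 and No.8. The label of mixed sex is the same for all 8, and whether the pools held the same share of females was not tested. Because of the odd and even pattern, each difference was taken on the log2 scale inside the odd samples (No.1 against the mean of No.3, No.5 and No.7) and inside the even samples (No.2 against the mean of No.4, No.6 and No.8). The average is called the parity-adjusted difference. No yolk or eggshell contig was a member, of 24 tested. With the odd samples this low, the rule could hardly be met, so this count says nothing about the pair. The median difference of these contigs was -2.38, the furthest from 0 of the 23 gene lists, with -0.58 inside the odd and -4.14 inside the even samples.

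The lower contigs stood further apart than the higher ones. Their median parity-adjusted log2 difference was -1.58, with -1.42 inside the odd and -1.67 inside the even samples, and that of the higher contigs was 1.22, with 1.06 and 1.28, while the median over all 13026 contigs was 0.15. The gap, which is the ratio between the nearest samples on each side of the split, reached 4-fold in 85 lower contigs (0.653% of those tested) and in 8 higher contigs (0.0614%), and 10-fold in 24 lower and 0 higher contigs. Summed over the 85 contigs, the level was 167 CPM in No.1 and 165 CPM in No.2, and 2451 to 3069 CPM in the other samples. Summed over the 8 contigs, it was 127 and 80.5 CPM against 3.75 to 6.99 CPM. The choice of members fixes the signs of these values. Fewer samples on a side make the rule easier to meet, and 151 lower and 35 higher contigs had such a gap without No.2, and 280 and 283 without No.1, where the counts of both directions were nearly equal.

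**Figure D1:**
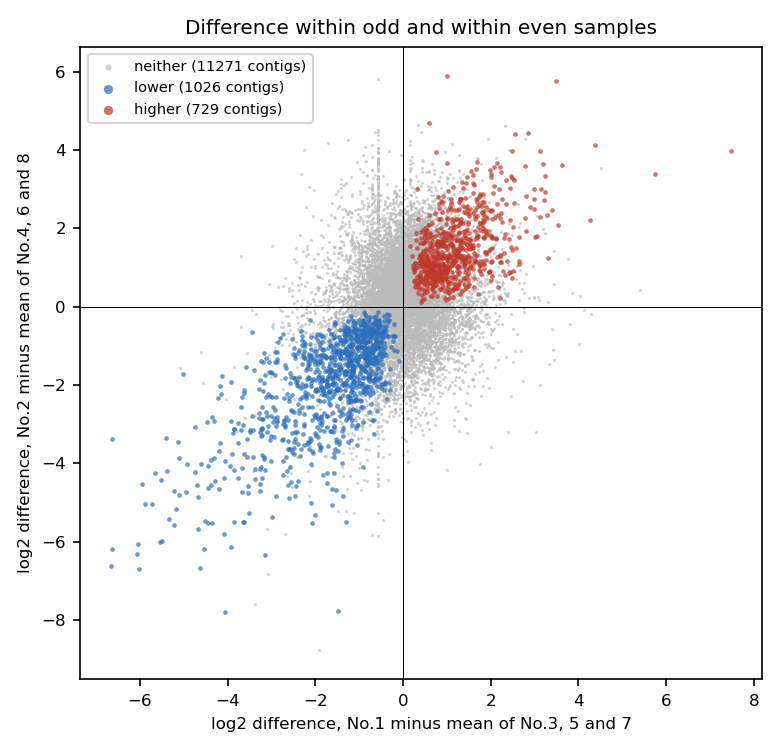
Each point is an insect-annotated contig with a mean count of at least 10, with the log2 difference of No.1 from the odd samples on the x axis and of No.2 from the even samples on the y axis. The 1026 lower contigs (blue) fill the lower left, down to a parity-adjusted difference of -6.64, and the 729 higher contigs (red) the upper right, up to 5.73, while the others (grey) surround the origin.

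At the edge of the rule the differences were small. The lower contig with the smallest gap, M_dom_rep_c12262 (matched to GJ11278 of Drosophila virilis), was at 6.83 and 3.87 CPM, and the lowest of the others was also at 6.83 CPM after rounding. M_dom_rep_c12884 (GA13408) lay just outside, with 11.3 CPM both in No.2 and in the lowest of the others. On the other side, M_dom_rep_c19747 (GK21900) lay just inside, with 4.47 and 6.84 CPM against at most 4.47 CPM, and M_dom_rep_c7599 (GJ13644) just outside, with 10.1 and 23.1 CPM against at most 10.1 CPM.

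The lower contigs with a gap of at least 4-fold included 3 contigs annotated as cytochrome P450, which need not be 3 genes. M_dom_rep_c34193 (annotated in the deposited table as CYP6A38v1 of the housefly, 1602 bases) was at 1.37 CPM in No.1 and 1.38 CPM in No.2, and at 206, 129, 125, 154, 30.0 and 66.6 CPM in No.3 to No.8. The nearest samples were 21.8-fold apart, and the parity-adjusted log2 difference was -6.19. M_dom_c4504 (1717 bases, best matched to a P450 of the oriental fruit fly Bactrocera dorsalis) was at 2.85 and 2.69 CPM, and at 216, 328, 125, 145, 85.1 and 108 CPM in No.3 to No.8. M_dom_rep_c28190, a contig of 605 bases matched to a Bactrocera dorsalis P450 too, was at 0.434 and 0.621 CPM and lay between 10.2 and 32.1 CPM in the others, with a median of 13.4 CPM. In all 3 contigs No.1 and No.2 were close to each other, while No.3 to No.8 spread over at least 3-fold. The study's own list of P450 contigs gives other names: M_dom_rep_c34193 stands under CYP6A1, M_dom_rep_c28190 under CYP315A1, and M_dom_c4504 under both CYP315A1 and CYP12C1.

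Of 55 P450 contigs tested, 18 were lower, 1 was higher and 36 were neither, that is 32.7% lower against 7.88% of all tested contigs. Their median difference was -0.86 against 0.15 over all contigs, and 43 of the 55 had a difference below 0. Contigs matched to the housefly made up 43 of the 55, and 13 of these were lower. The share of lower contigs was also high, at 23.4%, over all 354 contigs matched to the genus Musca, P450 contigs among them. Summed over the 18 lower contigs, levels were 426 and 198 CPM, and 892 to 1850 CPM (median 1150) in the others, an order fixed by their choice. Over all 55 contigs No.2 lay inside the range, at 2742 CPM against 2368 to 8413 CPM, and No.1 just below it, at 2294 CPM. Leaving the 10 most counted contigs out of the totals kept 16 of the 18 lower contigs, without M_dom_c29 (CYP6A37) and M_dom_rep_c12837 (CYP6D3).

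The lower P450 contigs ranged over families that are known in insects for xenobiotic metabolism and others. In the CYP6 family, to which enzymes tied to insecticide resistance belong, the longer CYP6G4 contig, M_dom_rep_c6373, was at 145 and 64.8 CPM against a range of 197 to 379 CPM (median 288), and the shorter one, M_dom_rep_c13526, at 0.372 and 0.829 CPM against 2.24 to 5.19 CPM (median 4.37). CYP6A37 (M_dom_c29) was at 18.3 and 7.87 CPM against 19.8 to 40.5 CPM, and CYP6D3 (M_dom_rep_c12837) at 26.9 and 7.80 CPM against 28.3 to 162 CPM, so that No.1 nearly met the lowest of the others in both. M_dom_rep_c18509, matched to CYP6A27 of the blowfly Lucilia cuprina, held 1 count in each of No.1 and No.2 and 0.638 to 4.70 CPM elsewhere.

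All 3 contigs of CYP28B1 were lower. The longest, M_dom_c1608, was at 66.6 and 17.6 CPM against 90.0 to 257 CPM (median 146), M_dom_rep_c21570 was at 1.24 and 1.10 CPM against 1.92 to 4.02 CPM, and M_dom_rep_c32995 at 2.92 and 1.45 CPM against 3.46 to 10.5 CPM. CYP4D4v2 (M_dom_c1971) was at 5.46 and 9.39 CPM against 15.0 to 36.5 CPM, and a P450 of family 4 (M_dom_rep_c8304) at 2.85 and 1.80 CPM against 4.65 to 9.44 CPM. CYP12A3 (M_dom_c26961), of a mitochondrial P450 family, was at 2.73 and 2.00 CPM against 3.10 to 8.47 CPM, with a difference of -0.87, the smallest of the 18. These names are those of the deposited annotation, and the study's own list of P450 contigs gives others. It places the 3 CYP28B1 contigs under CYP28D1-like, M_dom_c1971 under CYP4D14-like and M_dom_c26961 under CYP12A2-like.

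Lower P450 contigs without a gene name in their annotation were spread over low and high levels. The study's own list of P450 contigs places M_dom_rep_c14635 under CYP6D1, M_dom_rep_c7163 under CYP6A1 and M_dom_rep_c7313 under CYP9F2. M_dom_rep_c14635 was at 107 and 60.1 CPM against 171 to 439 CPM (median 281), and M_dom_rep_c7313 at 40.5 and 17.9 CPM against 54.1 to 88.5 CPM. M_dom_rep_c9873 was at 1.55 and 0.483 CPM against 2.19 to 5.45 CPM, and M_dom_rep_c7163 had 0 counts in No.1, 1 count in No.2 and 0.430 to 8.05 CPM in the others. No.2 lay below No.1 in 12 of the 18 contigs. The only higher P450 contig, M_dom_c20782, was at 1.24 and 1.66 CPM against 0.481 to 1.00 CPM.

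The P450 contigs with the highest levels were not members. M_dom_rep_c6003 (CYP4G13v2; in Drosophila, enzymes of the CYP4G family make the hydrocarbons of the cuticle) was at 898 CPM in No.1 and 724 CPM in No.2, and at 4732, 22.1, 1667, 168, 3271 and 17.2 CPM in No.3 to No.8. Its level alternated between odd and even samples in No.3 to No.8, and No.1 and No.2 lay inside that range. CYP4G2v1 (M_dom_c1956) was at 80.3 and 461 CPM against 175 to 1392 CPM, so that only No.1 lay outside. The summed level of the 36 P450 contigs that were neither was 1866 and 2542 CPM, inside the range of 1475 to 6563 CPM of the others. Inside the odd samples No.1 lay below all others, as No.3, No.5 and No.7 were at 6563, 2873 and 4701 CPM. No.2 lay inside the range of the even samples.

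**Figure D2:**
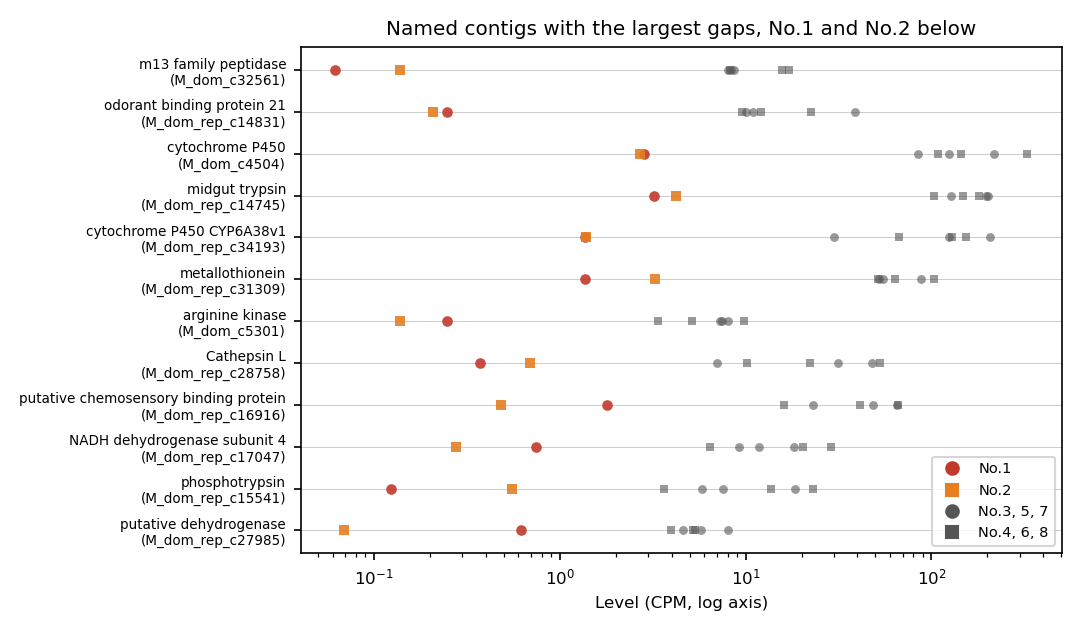
Levels in CPM (log axis) of the 12 named lower contigs with the largest gaps, with 1 point per sample, circles for odd and squares for even samples. No.1 (red) and No.2 (orange) lie left of all grey points in each row, as the rule requires, and for CYP6A38v1 they coincide at 1.37 and 1.38 CPM.

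Other detoxification contigs were lower about as often as P450 contigs: 15 of 42 (35.7% against 7.88% of all tested contigs) were lower and 1 was higher, with a median difference of -0.91. Summed over the 42 contigs, No.1 was at 3694 CPM, inside the range of 2715 to 9422 CPM of the others, and only No.2 lay below it, at 1881 CPM. Glutathione S-transferases made up 11 of the 15. Their number among the 42 tested contigs is not given here, so this count is no result about them. Glutathione S-transferase 6B (M_dom_rep_c15675) was at 5.52 CPM in No.1, 1.52 CPM in No.2 and 34.3, 44.8, 34.8, 57.0, 24 and 32.5 CPM in No.3 to No.8, with a gap of 4.35-fold. Glutathione S-transferase 6A (M_dom_rep_c23679) was at 6.45 and 2.42 CPM against 20.9 to 35.9 CPM, and Glutathione S-transferase 1 (M_dom_rep_c6912), at much more counts, at 84.1 and 80.6 CPM against 173 to 351 CPM. Among the esterases, alpha-esterase 2 (M_dom_c25089) was at 10.7 and 3.94 CPM against 11.6 to 39.9 CPM, and a carboxylesterase (M_dom_c34772) was the higher contig, at 1.68 and 1.24 CPM against 0 to 0.862 CPM.

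Cytochrome b5, which passes electrons to P450 enzymes, was lower in 9 of 9 contigs matched to the housefly protein. The longest contig, M_dom_rep_c5491, was at 12.5 and 10.4 CPM, and at 60.9, 37.3, 61.1, 40.6, 79.5 and 47.1 CPM in No.3 to No.8. Summed over the 9, the level was 77.4 CPM in No.1, 55.0 CPM in No.2 and 210 to 552 CPM (median 379) in the others, with the odd samples above the even ones on both sides of the split. The differences ranged from -1.09 (M_dom_rep_c16603, at 11.4 and 8.77 CPM against 13.5 to 32.7 CPM) to -3.28 (M_dom_rep_c14275), and contigs of 1 annotation can share sequence and reads, so they are not independent. No contig of the insecticide targets (acetylcholinesterase, acetylcholine receptor and ion channel subunits) was a member, of 9 tested. With so few contigs this is near the shares over all contigs (7.88% lower and 5.6% higher), so the count is no result about the targets. Their median difference was -0.19, with 0.58 inside the odd and -0.96 inside the even samples.

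Serine proteases, many of which digest proteins in the gut, had a share of lower contigs near that of the detoxification lists. Of 37 serine protease contigs, 13 (35.1% against 7.88% of all tested contigs) were lower and 2 were higher (5.41%, near the 5.6% over all), with a median difference of -1.03. Midgut trypsin M_dom_rep_c14745 (trypsins cut food proteins in the gut) was at 3.23 CPM in No.1 and 4.21 CPM in No.2, and at 201, 147, 128, 180, 196 and 103 CPM in No.3 to No.8, so that the nearest samples were 24.5-fold apart. A shorter contig of the same annotation, M_dom_rep_c29746, was at 1.18 and 0.898 CPM against 19.5 to 88.5 CPM. The most counted midgut trypsin, M_dom_rep_c5980, was no member: it was at 979 and 1702 CPM, and the latter lay inside the range of 1586 to 3548 CPM. Summed over the 5 contigs of this annotation, midgut trypsin was at 988 and 1728 CPM against 1750 to 3826 CPM, and the contig M_dom_rep_c14745 contributed at most 201 CPM to any sample.

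Phosphotrypsin (M_dom_rep_c15541) had 2 counts in No.1 and 8 in No.2, and 3.65 to 22.9 CPM in the others. The Trypsin contig matched to a flesh fly protein, M_dom_rep_c6022, was at 211 and 117 CPM against 325 to 839 CPM. Higher than in the others was serine protease K15/F2R3 (M_dom_rep_c30586), at 70.2 and 75.2 CPM against 20.7 to 46.4 CPM. Over a marker set of 29 contigs with trypsin in their annotation, the summed level was 3228 and 3020 CPM against 3853 to 6335 CPM, with No.8 the lowest of the others. Whether the pools held less gut tissue was not tested.

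Carbohydrate enzymes gave 4 lower contigs of 18 (22.2% against 7.88% of all tested contigs) and 0 higher ones, but the pair was split in their sum: over the 18 contigs No.1 was at 11545 CPM, above all other samples, and No.2 at 2138 CPM, below all, with 4143 to 10386 CPM in No.3 to No.8. Alpha-amylase (M_dom_rep_c33368), which cuts starch, was at 549 CPM in No.1 and 85.8 CPM in No.2, and at 2514, 1356, 1164, 1020, 1503 and 1306 CPM in No.3 to No.8. Summed over 6 alpha-amylase contigs, the pair was at 5698 and 834 CPM against 1774 to 7054 CPM, so the sum of No.1 lay inside the range. Cathepsin L (M_dom_rep_c28758), a cysteine protease of lysosomes and, in flies, of the gut, was at 0.372 and 0.691 CPM, and at 6.99, 10.2, 47.7, 22.3, 31.2 and 52.6 CPM in the others. Of 20 lysozyme and cathepsin contigs, 5 were lower (25% against 7.88% of all tested contigs), among them 3 of cathepsin F. The 2 higher ones (10% against 5.6%) were matched to a protein that binds the messenger RNA of cathepsin B in the flesh fly and is not a cathepsin itself. Summed over the 20 contigs, No.1 was at 829 CPM, below the range of 1045 to 1741 CPM of the others, and No.2 inside it, at 1312 CPM.

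**Figure D3:**
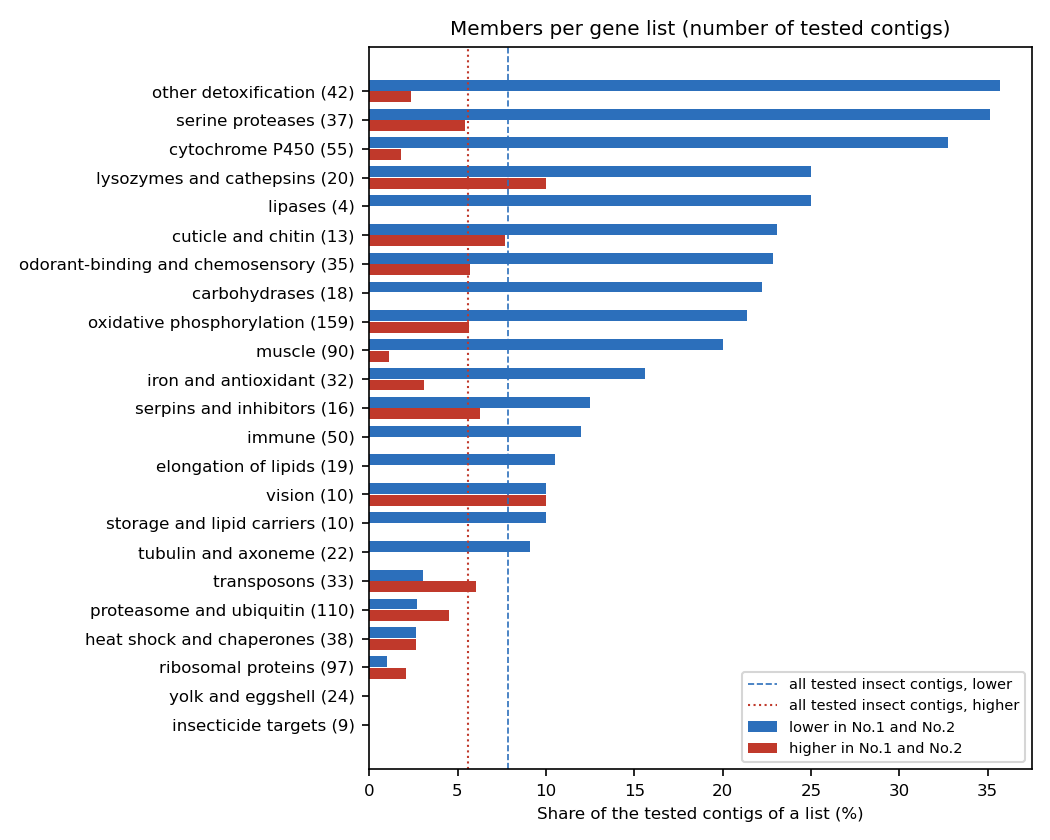
Share of the tested contigs of each of 23 gene lists that were lower (blue) or higher (red) in No.1 and No.2, with the shares over all tested insect contigs (7.88% and 5.6%) as vertical lines and the number of tested contigs in parentheses. Other detoxification, serine proteases and P450 enzymes reach 35.7%, 35.1% and 32.7% lower, and ribosomal proteins 1.03%. In the ribosomal sum No.1 lay below and No.2 above all other samples, so the rule could hardly be met there.

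Proteins of the antenna and other chemosensory contigs were lower in 8 of 35 (22.9% against 7.88% of all tested contigs) and higher in 2 (5.71% against 5.6%, so near the share over all). The summed level of 19 odorant-binding contigs overlapped between the sides, at 1106 and 763 CPM against 732 to 2016 CPM, and so did that of 11 opsin and arrestin contigs of the eye, at 1382 and 636 CPM against 377 to 2064 CPM. Odorant binding protein 21 (M_dom_rep_c14831), of a family that carries odour molecules in the fluid around sensory neurons, held 4 counts in No.1 and 3 in No.2, that is 0.248 and 0.207 CPM, and 38.9, 22.6, 10.1, 9.55, 10.9 and 12.1 CPM in No.3 to No.8. Another contig of it, M_dom_rep_c9148, was at 4.96 and 3.94 CPM against 53.5 to 186 CPM (median 65.8), and the third, M_dom_rep_c16905, held 1 and 0 counts. The fourth, M_dom_rep_c11999, overlapped with the others, at 72.0 and 51.0 CPM against 50.02 to 121 CPM. The sum of the 4 was 77.3 and 55.1 CPM against 118 to 334 CPM, still below all others.

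A chemosensory binding protein (M_dom_rep_c16916) was at 1.80 and 0.483 CPM against 16.1 to 66.0 CPM, whereas M_dom_rep_c16510 of the same name was higher, at 11.4 and 6.28 CPM against 1.00 to 4.22 CPM. Of 10 contigs of vision genes, 1 was lower and 1 higher (10% each, against 7.88% and 5.6% of all tested contigs). With so few contigs these counts are no result about vision. The lower one, rhodopsin 5 (M_dom_c25337), was at 2.48 and 1.93 CPM against 4.61 to 21.3 CPM. The higher one, M_dom_c3955, was annotated as a protein that helps rhodopsin out of the endoplasmic reticulum in Drosophila. It was at 12.9 and 14.4 CPM against 1.37 to 11.4 CPM.

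Muscle contigs were lower in 18 of 90 (20% against 7.88% of all tested contigs) and higher in 1, and 13 were lower with TMM and 12 with DESeq2 size factors. Myosin heavy chain (M_dom_rep_c25685), the motor of the thick filament, was at 3.85 CPM in No.1, 0.483 CPM in No.2 and 20.1, 11.8, 21.3, 10.3, 29.6 and 23.9 CPM in No.3 to No.8. Flightin (M_dom_c23547), a protein of insect flight muscle, was at 17.9 and 10.6 CPM against 35.3 to 312 CPM, and myosin light chain 2 (M_dom_c1522) at 874 and 248 CPM against 1134 to 3325 CPM. The lower of the pair was No.2 in all of these. Over a marker set of 25 myosin, troponin and flightin contigs, the summed level was 1130 CPM in No.1, 354 CPM in No.2 and 1139 to 5545 CPM in the others, so No.1 nearly met No.3. Over all 90 muscle contigs No.1 lay inside the range, at 6795 CPM against 6664 to 19256 CPM, and No.2 below it, at 3051 CPM. The higher contig, a putative paramyosin (M_dom_rep_c16664), was at 11.1 and 11.2 CPM against 4.82 to 10.9 CPM.

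Arginine kinase, which buffers ATP in insect muscle, was lower in all 6 of its contigs, and the contigs differed in how far. M_dom_c5301 held 4 and 2 counts in No.1 and No.2, and lay at 7.28, 9.81, 8.08, 5.16, 7.49 and 3.37 CPM in No.3 to No.8. M_dom_rep_c5620 (1615 bases) was at 2.42 and 1.10 CPM against 16.3 to 54.9 CPM, with a difference of -4.15. The most counted contig, M_dom_rep_c11886, was at 231 and 85.1 CPM against 254 to 659 CPM, with a difference of -1.52. Summed over the 6, the level was 299 and 108 CPM against 447 to 853 CPM.

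Contigs of oxidative phosphorylation were lower in 34 of 159 (21.4%) and higher in 9 (5.66%), against 7.88% and 5.6% of all contigs, and 28 were lower with TMM and 26 with DESeq2 size factors. NADH dehydrogenase subunit 4, encoded by the mitochondrial genome, was lower in a contig matched to a leafhopper sequence (M_dom_rep_c17047) at 0.745 and 0.276 CPM against 6.42 to 29.0 CPM, and in the most counted contig matched to the housefly (M_dom_rep_c5523) at 600 and 732 CPM against 1146 to 2788 CPM. Cytochrome c oxidase subunit III went both ways, with 3 lower and 7 higher contigs of 23. Its most counted lower contig, M_dom_rep_c6072, was at 451 and 479 CPM against 1049 to 1935 CPM, and the higher contig M_dom_c21695 at 51.7 and 44.5 CPM against 16.9 to 25.3 CPM. The sum over the 23 was 1585 and 1462 CPM against 2049 to 2921 CPM.

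ATP synthase F0 subunit 6 was higher in 2 contigs. M_dom_rep_c29842 was at 4.84 and 7.80 CPM against 0.584 to 2.02 CPM, and M_dom_rep_c23635 at 2.67 and 8.15 CPM against 0.365 to 1.17 CPM. The contigs of nuclear subunits on the lower side had smaller gaps, such as the beta subunit of ATP synthase (M_dom_rep_c5780), at 510 and 588 CPM against 654 to 1225 CPM.

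Of 50 immune contigs, 6 were lower (12% against 7.88% of all tested contigs) and 0 higher. With TMM 4 were lower and with DESeq2 size factors 3, near the share over all contigs, so the count is no result about immune genes. The median difference of the 50 contigs was -0.68 against 0.15 over all contigs. Their sum was 10032 and 4584 CPM against 10133 to 19380 CPM, so that No.2 lay below the others and No.1 nearly met the lowest of them. Defensin (M_dom_rep_c15058), an antibacterial peptide, was at 924 CPM in No.1 and 447 CPM in No.2, and at 3710, 3668, 3881, 3522, 2006 and 2274 CPM in No.3 to No.8. Counts on contigs annotated to bacteria summed to 17082 and 7746 CPM against 9807 to 14928 CPM, and those annotated to fungi to 31262 and 20244 CPM against 18270 to 21926 CPM, so No.1 was highest and No.2 lowest for bacteria. Their part in the defensin level was not tested.

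Metal-binding proteins gave members in both directions. Metallothionein M_dom_rep_c31309 (metallothioneins bind copper, zinc and cadmium) was at 1.37 and 3.25 CPM, and at 52.0, 51.6, 87.5, 104, 54.6 and 63.7 CPM in No.3 to No.8, a gap of 15.9-fold. M_dom_rep_c20444 of the same annotation was higher, at 61.1 and 85.0 CPM against 23.7 to 56.1 CPM. Of the 8 metallothionein contigs 3 were lower, 1 was higher and 4 were neither, and their sum was 129 and 148 CPM against 163 to 219 CPM. A ferritin heavy chain-like contig (M_dom_rep_c15433; ferritin stores iron) was lower at 3.85 and 3.11 CPM against 15.9 to 44.4 CPM, and another (M_dom_rep_c14626) was higher at 47.8 and 77.9 CPM against 11.4 to 38.2 CPM.

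Hexamerin F1 (M_dom_rep_c16955), a storage protein of insect haemolymph, was lower but with a wide spread among the others: 5.46 and 16.2 CPM against 21.4, 250.3, 1942, 2231, 47.0 and 659 CPM. M_dom_c32561, matched to a peptidase of the M13 family, held 1 count in No.1 and 2 counts in No.2, and lay at 8.01 to 17.2 CPM in the others. The contig with the largest gap of all, M_dom_c29351, had no protein name (GA25967), with 2 and 4 counts in No.1 and No.2 and 10.8 to 39.3 CPM in the others. A putative dehydrogenase was lower in all 3 of its contigs, with a sum of 2.54 and 0.276 CPM against 18.4 to 36.9 CPM.

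Among genes that all cells use, 1 of 97 ribosomal protein contigs was lower and 2 were higher (1.03% and 2.06%, against 7.88% and 5.6% of all tested contigs). Of 110 proteasome and ubiquitin contigs 3 were lower and 5 higher (2.73% and 4.55%, the latter near the share over all), and of 38 heat shock and chaperone contigs 1 and 1 (2.63% each). The median difference of ribosomal proteins was 0.23, with -0.34 inside the odd and 0.76 inside the even samples, so that the odd and even samples went in opposite directions. In their sum No.1 lay below all other samples and No.2 above all, at 27477 and 121807 CPM against 36171 to 106081 CPM. The proteasome and ubiquitin sum was split likewise, at 3335 and 8886 CPM against 4152 to 7511 CPM. With the pair on opposite sides the rule could hardly be met, so these low shares do not show steady levels. Ribosomal protein S12 (M_dom_rep_c15668) was the lower contig, at 10.8 and 37.9 CPM against 49.0 to 237 CPM.

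The leading names among the higher contigs came from many processes. Toutatis (M_dom_rep_c30414), a chromatin protein in Drosophila, was at 5.77 CPM in No.1 and 6.08 CPM in No.2, and at 0.575, 0.660, 0.288, 0.682, 0.603 and 0 CPM in No.3 to No.8. A ribonuclease (M_dom_rep_c24013) was at 21.0 and 17.5 CPM against 6.13, 4.62, 1.54, 1.07, 1.29 and 0.547 CPM. A serine/threonine kinase receptor-associated protein (M_dom_c3905) was at 19.9 and 20.1 CPM against 0.516 to 9.10 CPM, and phosphoinositide 3-kinase (M_dom_rep_c9045), which relays insulin signals, at 12.8 and 11.6 CPM against 2.01 to 5.56 CPM. In these 4 contigs No.1 and No.2 were close to each other.

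In other higher contigs the pair itself was apart. A reverse transcriptase (M_dom_rep_c6712), the enzyme by which retroelements copy themselves, was at 20.7 and 3.52 CPM against 0 to 0.575 CPM, and the contig with the largest higher gap, M_dom_rep_c5626 (AGAP006133-PA), at 49.6 and 5.94 CPM against 0.0961 to 0.638 CPM. A cyclin-dependent kinase 8-like contig (M_dom_rep_c11816) was at 1.92 and 10.4 CPM against 0.0861 to 0.849 CPM, and ubiquitin-conjugating enzyme E2-230k (M_dom_rep_c32704) at 2.48 and 14.6 CPM against 0.577 to 1.46 CPM. Of 33 transposon contigs, 2 were higher (6.06%, near the 5.6% of all tested contigs), and 1, a Pol polyprotein of transposon 297 (M_dom_rep_c8896), was lower, at 4.41 and 4.42 CPM against 22.4 to 42.7 CPM.

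**Figure D4:**
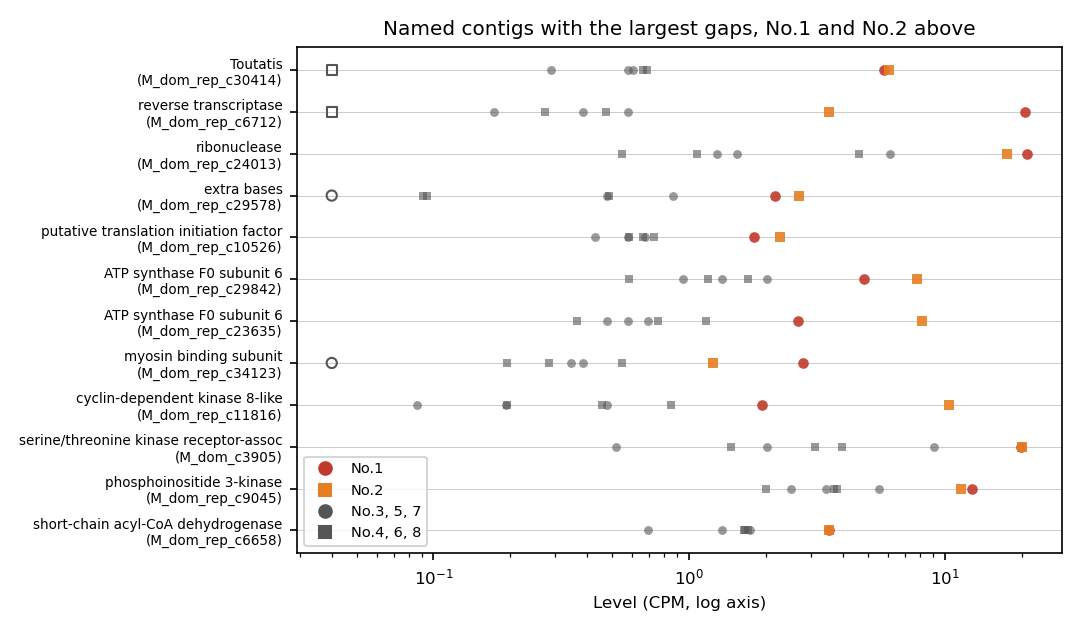
Levels in CPM (log axis) of the 12 named higher contigs with the largest gaps, with 1 point per sample, circles for odd and squares for even samples, and open symbols for 0 counts, drawn at the left edge. No.1 (red) and No.2 (orange) lie right of all grey points, at 5.77 and 6.08 CPM for Toutatis and at 20.7 and 3.52 CPM for the reverse transcriptase.

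The annotation with the most higher contigs among protein names was extra bases, a translation regulator in Drosophila, with 12 higher contigs of 19. M_dom_rep_c29578 was at 2.17 and 2.69 CPM against 0 to 0.865 CPM, and M_dom_rep_c30427 at 7.51 and 14.9 CPM against 1.63 to 5.08 CPM. The most counted contig, M_dom_rep_c5539, was no member, at 33.5 and 58.6 CPM against 25.2 to 48.3 CPM, and the sum of the 19 was 81.5 CPM in No.1, inside the range of 49.995 to 82.8 CPM, and 138 CPM in No.2. A hypothetical protein matched to the ant Camponotus floridanus (EAG_13571) was higher in 14 of 20 contigs, which together with the other 6 took 5.24% of all counts in No.1 and 4.49% in No.2, against 3.00% to 3.67% in the others. The higher contigs as a whole took 4.96% and 3.81% of the counts against 2.14% to 2.56%, and without this annotation 1.17% and 1.33% against 0.549% to 0.692%. The lower contigs took 3.23% and 2.73% against 6.84% to 9.49%.

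Contigs of 1 annotation did not always lie on 1 side. Of 9755 annotations, 1859 had at least 2 tested contigs, 357 of these had a lower contig and 213 a higher one, and 25 had both, which is 7.00% of the former and 11.7% of the latter. In 52 annotations all contigs were lower and in 19 all were higher. When the contigs of an annotation were summed, 142 of the 332 annotations with lower contigs alone lay below the other samples, 68 of the 188 with higher contigs alone lay above, and 20 of the 25 with both did neither. The large subunit of RNA polymerase II, which makes messenger RNA, was such a case, with M_dom_rep_c12505 at 1.18 and 1.45 CPM against 9.33 to 13.2 CPM, and M_dom_rep_c16012 at 16.5 and 17.2 CPM against 4.90 to 12.7 CPM. Serine protease inhibitor 4 was lower in M_dom_c10503, at 1.55 and 0.621 CPM against 4.91 to 15.6 CPM, and higher in M_dom_rep_c14968, at 65.4 and 66.6 CPM against 1.64 to 51.2 CPM, where No.3 alone came near. A gamma subunit of the preprotein translocase was lower in M_dom_rep_c12155, at 1.30 and 1.59 CPM against 7.50 to 32.8 CPM, and higher in M_dom_rep_c5662, at 3.35 and 4.76 CPM against 0.577 to 2.55 CPM. The names GF20761 and LOC100643037, for which no protein name is given, had contigs on both sides as well.

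The sets differed in length, which the rule did not use, and in mean count, on which the filter rested. The lower contigs had a median length of 804 bases and the higher ones of 1087 bases, against 961 bases over all tested contigs, and the 85 lower contigs with a gap of at least 4-fold had 630 bases. The median mean count was 144.5 for lower, 52.9 for higher and 77.4 for all contigs. The share of lower contigs was 4.78% at mean counts from 10 to 50, 8.07% from 50 to 200, 10.3% from 200 to 1000 and 16.4% above, while the share of higher contigs was 6.96%, 5.76%, 4.04% and 2.11%. The mean count includes No.1 and No.2, so these shares are a description. The median mean count was 124 for P450 contigs, 236 for other detoxification, 207 for serine proteases and 2396 for ribosomal proteins, whose share of lower contigs was 1.03%. That share is limited by the opposite positions of No.1 and No.2 in the ribosomal sum.

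The shares also differed with the genus of the best match. Of 354 contigs matched to the genus Musca, 23.4% were lower and 2.54% higher. The shares of lower contigs were 16.1% of 137 for the stable fly Stomoxys, 16.98% of 53 for the blowfly Lucilia, 8.52% of 2043 for the tsetse fly Glossina and 6.96% of 9162 for Drosophila, and the higher shares were 3.65%, 3.77%, 3.92% and 5.93%. In the mosquitoes higher contigs outnumbered lower ones, with 5.14% lower and 7.12% higher of 253 for Aedes, 5.81% and 6.45% of 155 for Culex and 5.96% and 7.28% of 151 for Anopheles. A protein name was given for 37.9% of the lower, 24.01% of the higher and 28.7% of all tested contigs. Contigs without an insect species, 7346 in number, gave 9.69% lower and 6.28% higher ones.

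Inside No.3 to No.8, all odd samples exceeded all even ones in 67 lower contigs (6.53%), and the reverse held in 37 (3.61%), against 7.33% and 13.3% of all tested contigs. The same shares for the higher contigs were 3.98% and 5.76%. No.2 lay below No.1 in the majority of the lower contigs and above it in the majority of the higher ones: No.1 was the smaller in 37.4% of the lower, 67.6% of the higher and 57.7% of all tested contigs. In 37 lower contigs both samples held at most 3 counts, and in 4 of these both held 0, which at these totals allows levels of up to 0.186 CPM in No.1 and 0.207 CPM in No.2 by counting error alone.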

How the data were processed

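Whole-number counts of reads per contig of the 791spin assembly were deposited by the authors for 8 samples, without normalization, with contig lengths and annotations. A deposited signal, which is the counts scaled to the total of No.6, filled 8 further columns and was not used. For the aligner and for the origin of the reads: not given in the sources used here. Samples were matched to columns by title.

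CPM were computed on column totals. Insect annotations were found by genus, species code or common name, without viruses and symbionts. The rule, the floor of 3 counts for gaps and differences, and the mean count of at least 10 were applied in Python 3.11.15 (numpy 2.4.6, pandas 2.3.3, matplotlib 3.10.9). TMM factors and a model coefficient came from edgeR 4.0.16 and size factors from DESeq2 1.42.0, in R 4.3.3, with no test. The rule was tested on simulated data.

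The split, the members, the 23 lists (words in the annotation) and the genes named were chosen with earlier results of these data known. Contigs named were the 12 named contigs with the largest gaps in each direction, the leading contig of each list, all P450 members, 2 P450 contigs named before, the contigs at the edge of the rule and the 5 annotations on both sides with the largest gaps. Other contigs and summed annotations were added after their values were seen. The totals give counting error only, and it is unknown whether the pools are biological replicates.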

Additional observations from a re-analysis of the deposited data

Results flagged for a closer look

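Of 83 results looked at over the 8 samples, 13 had a highest or lowest sample far from its nearest neighbour (Dixon's ratio above its 95% critical value for 8 samples, which chance gives in about 1 of 20 groups). The flagged sample was No.1 in 4, No.2 in 4 and another sample in 5. Since the contigs were chosen for the position of No.1 and No.2, flags in these samples are partly fixed by the choice.

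No.1 was far above the rest in the reverse transcriptase M_dom_rep_c6712 (20.7 CPM, with 3.52 CPM next), in peritrophin-15 M_dom_c19719 (112 CPM, with 33.8 CPM next), a protein of the membrane that lines the insect gut, in M_dom_rep_c24982 (15.1 CPM, with 6.84 CPM next) and in the myosin binding subunit M_dom_rep_c34123 (2.79 CPM, with 1.24 CPM next). No.2 was far above the rest in the ubiquitin-conjugating enzyme M_dom_rep_c32704 (14.6 CPM, with 2.48 CPM next), the cyclin-dependent kinase 8-like M_dom_rep_c11816 (10.4 CPM, with 1.92 CPM next), ATP synthase F0 subunit 6 M_dom_rep_c23635 (8.15 CPM, with 2.67 CPM next) and the cathepsin B messenger RNA-binding protein M_dom_rep_c16181 (124 CPM, with 46.0 CPM next). All of these 8 were higher contigs, in which the rule itself makes the other sample of the pair the neighbour.

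Among lower contigs the flagged sample lay far above the rest, and the rule makes the highest sample one of No.3 to No.8. It was No.7 for rhodopsin 5 M_dom_c25337 (21.3 CPM, with 8.43 CPM next) and hormone-sensitive lipase M_dom_c26860 (3.27 CPM, with 1.25 CPM next). It was No.6 for CYP12A3 M_dom_c26961 (8.47 CPM, with 4.52 CPM next) and No.3 for CYP6D3 M_dom_rep_c12837 (162 CPM, with 71.8 CPM next). For the higher contig of heat shock protein 60, M_dom_rep_c12783, No.7 lay far below (0.516 CPM, with 1.64 CPM next).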

How the results depend on the processing

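The rule that chose the members was applied in every alternative run and fixes the signs of the median differences, so these signs are no check. With a count of at least 1 in any sample as the filter, the number of higher contigs was 1277 and their median difference 1.01, and with a mean count of at least 50 there were 381 higher contigs, 4 of them with a gap of at least 4-fold. Taking contigs of any or no annotation gave 1738 lower and 1190 higher contigs, 148 and 23 with such a gap. Summing contigs of identical annotation gave 650 lower annotations, with 33 lower and 3 higher ones of such a gap. Leaving out each sample in turn cannot lower the counts, since the rule becomes easier to meet. The lower contigs then numbered 1059 to 3126 and the higher ones 750 to 4874, and those with a 4-fold gap 88 to 280 and 8 to 283. The medians ranged from -1.58 to -1.02 and from 0.968 to 1.24. The highest counts came without No.1, and the smallest medians without No.2. TMM, DESeq2 size factors, totals without the 10 most counted contigs and thinning left the 4 counts within 1.5 times. Under TMM 931 of the lower and 696 of the higher contigs were kept. Of 80 named members, 77 kept their position under all 3 scalings. No mean CPM of a named contig moved by more than its SD over samples, but this SD includes the split itself, so that check could hardly fail. No paired analysis was possible because every sample is labelled alike. Counting error limits contigs with few counts, such as the 37 lower ones with at most 3 counts in both samples.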
